A study of Mus musculus with 18 samples.

Results

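The 5 loci described here, Mir17hg, Mir22hg, Mir99ahg, Dnm3os and Ftx, are long noncoding transcripts whose genes carry microRNA hairpins. They were chosen by name as host genes of microRNAs, with no measured value in the rule, and are 5 of the 13218 loci in the deposited table. The study measured long noncoding RNA in germ cells of the testis of ICR mice, an outbred strain. Its labels name 6 types, each in 3 libraries: priSG-A from day 6 after birth, priSG-B from day 9, plpSC from day 14, pacSC from day 21, rST from day 35 and elST from day 56. The animals carried no stated allele or treatment, and the cells were sorted by STA-PUT, in which they sink through a gradient at a speed that depends mostly on size. The labels do not expand the type names, which follow the field's abbreviations for spermatogonia (SG), spermatocytes (SC) and spermatids (ST), and the third elST sample carries no tissue entry of its own. The series text speaks of duplicates where the labels number 3 samples, and all were used. Nothing in the labels ties a sample to its own animal, so p-values measure the spread between libraries, which may be technical.

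A microRNA is cut from a hairpin that folds within a longer primary transcript. The enzyme Drosha removes the hairpin in the nucleus, Dicer trims it to a short duplex, and 1 strand guides Argonaute to messenger RNAs that pair with its seed, the bases near its 5′ end. Hairpins that lie in an exon of their host are released by cutting the transcript that is otherwise measured as the host, whereas hairpins in an intron can be released from the spliced-out part. In the testis, loss of Dicer from germ cells blocks the making of sperm. The libraries here were made from long RNA, so the values below are those of the host transcripts and not of the mature microRNAs.

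The mature sequences show what each host can give rise to, with bases 2 to 8, the seed, in capitals. They come from RefSeq on GRCm38.p6, which has the same chromosomes as mm10. Of 15 arms looked for, 14 had an entry, with 12 distinct seeds; miR-421-3p of Ftx is named only. Mir17hg stood apart with 6 arms that use 4 seeds, 2 of them shared by a pair of arms, here set side by side.
miR-17-5p: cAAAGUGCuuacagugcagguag
miR-20a-5p: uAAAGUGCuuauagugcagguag
miR-18a-5p: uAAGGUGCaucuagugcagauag
miR-19a-3p: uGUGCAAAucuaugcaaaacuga
miR-19b-3p: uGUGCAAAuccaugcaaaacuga
miR-92a-3p: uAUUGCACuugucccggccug

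The arms of the other 4 hosts each had a seed of their own. The first below is from Mir22hg, the next 3 from Mir99ahg, the next 3 from Dnm3os and the last from Ftx.
miR-22-3p: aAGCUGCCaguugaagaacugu
miR-99a-5p: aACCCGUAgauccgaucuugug
let-7c-5p: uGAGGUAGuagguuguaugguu
miR-125b-5p: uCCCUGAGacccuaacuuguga
miR-199a-5p: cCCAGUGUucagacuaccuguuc
miR-199a-3p: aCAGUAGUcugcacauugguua
miR-214-3p: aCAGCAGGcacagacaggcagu
miR-374b-5p: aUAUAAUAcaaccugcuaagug

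The hosts differed in where these hairpins lie (GENCODE M21 annotation, mm10). Mir17hg (ENSMUSG00000089726.2) is a lincRNA of 1 transcript on the plus strand at chr14:115042879-115046727, and its 6 hairpins all lie in the exon sequence that the FPKM is counted over. Mir22hg (ENSMUSG00000085148.1) lies on the plus strand at chr11:75461539-75466676, with Mir22 in an exon of both its transcripts. Dnm3os (ENSMUSG00000078190.7), at chr1:162217623-162225550 on the plus strand, runs antisense within the gene Dnm3 without sharing exon bases with it. Its hairpins Mir199a-2 and Mir214 were each wholly in an exon of 2 of its 6 transcripts. Mir99ahg (ENSMUSG00000090386.10) spans 537111 bp on the plus strand at chr16:77236317-77773427 and has 17 transcripts, and Mir99a, Mirlet7c-1 and Mir125b-2 lie in introns of 4 of them and in an exon of none. Ftx (ENSMUSG00000086370.9), on the minus strand at chrX:103560907-103623790, has 12 transcripts, of which 8 hold Mir421 and Mir374b in an intron. Mir374c was annotated in the same place on the other strand, so that 14 of the 15 hairpins lay on their host's strand. Because the hairpins of Mir99ahg and Ftx are intronic, their exon-based values measure the spliced host and not the sequence that holds the hairpins.

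The libraries did not sort by their type labels, which bears on every value below. In 11 of 18 pairs of libraries with the same label the correlation of log2 values over the kept loci was under 0.8, in 18 of 135 pairs with different labels it was 0.9 or more, and for 13 of 18 libraries the closest library had another label. An earlier look at these data set 5 libraries apart from their types, namely replicate 3 of priSG-A, plpSC and pacSC and replicate 1 of rST and elST. Tests are given with and without them. Since that look used these same data, leaving them out narrows the spread within types by selection. The p-values without them are therefore too small and are descriptions only. None of 6 spermatogonium and 6 spermatocyte markers is in the table of noncoding loci. Of 6 spermatid markers 1 is, the locus 1700027A15Rik, which shares 40 exon bases with Tnp1, the gene of a transition protein that packs DNA in spermatids. It was at 874 to 4539 FPKM in plpSC replicate 3, pacSC replicate 3, rST replicates 2 and 3 and elST replicate 2. It was listed at 0 in the library labelled rST replicate 1 and was at 0.570 FPKM in the one labelled elST replicate 1, against their labels. The 874 FPKM of plpSC replicate 3 and 1195 FPKM of pacSC replicate 3 were also against labels of spermatocytes. The other plpSC libraries were listed at 0, and the other pacSC libraries were at 75.8 and 84.9 FPKM. AY036118, a locus derived from ribosomal RNA, was at 7.25 to 36.2 FPKM in 6 libraries (all of priSG-B, 2 of pacSC, namely replicates 1 and 2, and elST replicate 3) and at 1998 to 13911 FPKM in the other 12. The scale of the FPKM corresponded to 31.7 to 92.2 M (mega) fragments a library. The 6 libraries with low AY036118 were also the deepest, at 64.9 to 92.2 M against 31.7 to 56.8 M in the other 12. Their inferred fragment lengths were longer too, at 233 to 264 bp against 197 to 213 bp. AY036118 level, depth and fragment length therefore cannot be told apart in these libraries. In these bulk samples fewer cells of a type and less RNA per cell cannot be told apart.

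Ftx lies in the X-inactivation centre and is known to activate Xist in female cells. It was the member with the clearest difference between types. Its level was 37.6, 34.0 and 42.7 FPKM in the 3 priSG-B libraries. In priSG-A it was 5.15, 5.80 and 1.98 FPKM. In plpSC it was 3.09, 3.40 and 1.42 FPKM. All priSG-B libraries lay far above every other library, of which the highest was priSG-A replicate 2 at 5.80 FPKM. Ftx was at 5.26, 5.43 and 1.66 FPKM in pacSC. The rST libraries gave 3.48, 0.744 and 0.948 FPKM, those of elST 4.75, 1.17 and 5.01 FPKM. Apart from priSG-B the types overlapped throughout, from a mean of 4.31 ± 2.04 FPKM (SD, n = 3) in priSG-A down to 1.72 ± 1.53 in rST, beside 38.1 ± 4.39 in priSG-B.

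**Figure D1:**
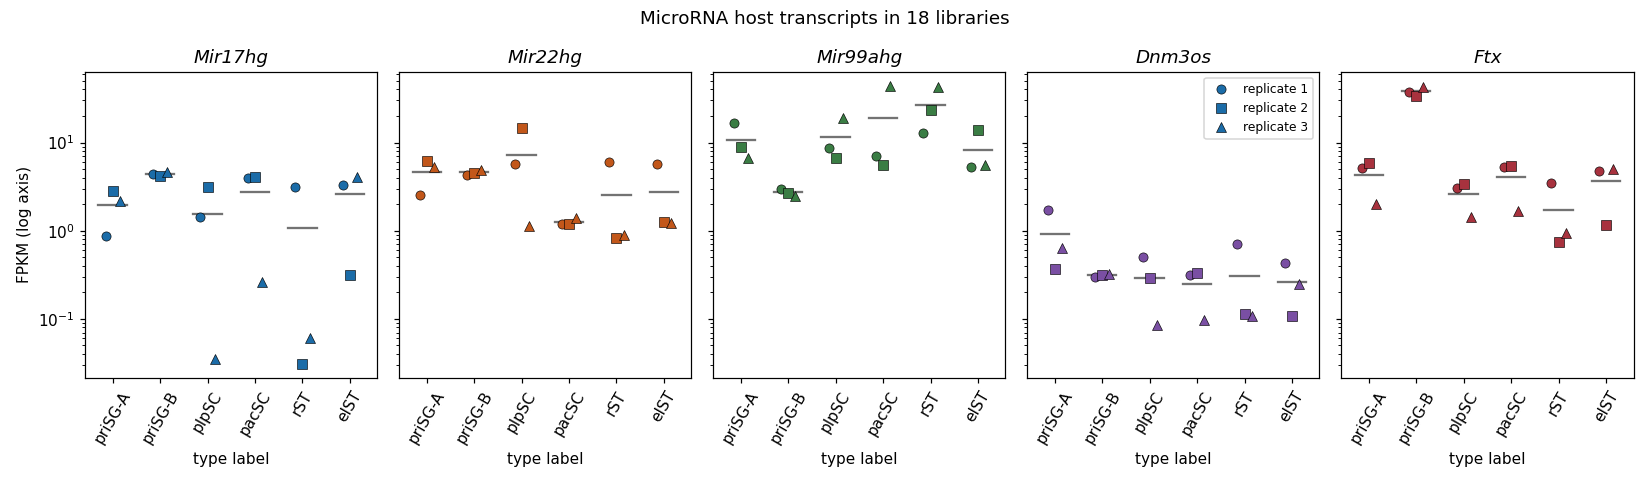
FPKM of the 5 host transcripts (log axis) in each library, grouped by type label, with the marker shape giving the replicate and the grey line the mean of 3 libraries. Ftx stands at 34.0 to 42.7 FPKM in priSG-B, while Mir17hg is at 0.312 FPKM or less in 5 libraries of 4 types.

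Ftx rose from priSG-A to priSG-B and fell from priSG-B to plpSC. Its mean FPKM was 8.84-fold higher in priSG-B than in priSG-A, and 14.4-fold higher than in plpSC. On the scale of log2(FPKM + 1), which understates changes of low genes, the difference was 2.96 ± 0.61 (SE, limma adjusted p = 0.0347) for priSG-B over priSG-A. For plpSC over priSG-B it was -3.47 ± 0.61 (limma adjusted p = 0.00799). The 2 tests share the priSG-B libraries and are not separate evidence for them. Ftx was the 1 member called of 4 that passed the filter in each, where 0.68% and 1.26% of all 4117 loci tested were called. Without the 5 libraries set apart the differences were 2.59 ± 0.36 (limma adjusted p = 0.00213) and -3.20 ± 0.36 (limma adjusted p = 0.000816), where 10.9% and 11.6% of loci were called. An F test over the 6 types called Ftx too (limma adjusted p = 0.0314), with 0.68% of loci called. Without the 5 libraries set apart all 4 members and 95.3% of loci passed it. As those libraries were picked from the same data, the p-values without them are descriptions only.

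The first of these calls depended on every library behind it. Without any 1 of the 3 priSG-A or 3 priSG-B libraries Ftx no longer passed in priSG-B against priSG-A, and over 18 alternatives its adjusted p ran from 0.00213 to 0.771 while its log2 fold change stayed between 1.95 and 3.26. In plpSC against priSG-B only the loss of priSG-B replicate 3, among single libraries, ended the call (limma adjusted p = 0.0663, in a range of 0.000816 to 0.395 over 18 alternatives). A pseudocount of 0.1 or quantile normalization also ended both calls and that of the F test. The priSG-B libraries also differed from all priSG-A and plpSC libraries in AY036118, in inferred depth and in inferred fragment length. With a term for AY036118 under or over 100 FPKM the differences were 1.95 ± 0.80 (limma adjusted p = 0.257) and -2.46 ± 0.80 (limma adjusted p = 0.148). Only pacSC and elST held libraries on both sides of that level, so the term was estimated within them. Their libraries also differed in 1700027A15Rik, and pacSC replicate 3 and elST replicate 1 are among those set apart. The term cannot separate AY036118 from these differences, nor from depth or fragment length. In the 3 other libraries with AY036118 under 100 FPKM, pacSC replicates 1 and 2 and elST replicate 3, Ftx was at 5.01 to 5.43 FPKM, against 34.0 to 42.7 FPKM in priSG-B.

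The neighbours of Ftx at the X-inactivation centre did not show its pattern. Jpx, another activator of Xist whose gene overlaps Ftx on the opposite strand without shared exon bases, gave 0.623, 0.330 and 0.423 FPKM in the priSG-B libraries, beside 1.36, 0.961 and 0.357 FPKM in those of priSG-A. Its libraries overlapped, and its difference was -0.34 ± 0.28 (limma adjusted p = 1). Gm38020, which lies within Ftx on the same strand and shares 633 exon bases with it, was at 0.284 to 0.350 FPKM in priSG-B. Its highest value was 0.737 FPKM in priSG-A replicate 1. Loci annotated as misc_RNA on the opposite strand share 60 to 205 exon bases each with Ftx. The library kit does not mark strand, so fragments there could come from either strand. Xist, the RNA that coats the inactive X, reached 0.554 FPKM at most and its antisense partner Tsix 0.0656 FPKM, so neither passed the filter. Of the 4 noncoding genes of the centre, 2 were tested and 1, Ftx itself, was called. The loci most like Ftx over the 18 libraries were Gm48632 (Pearson r = 0.989), A430103D13Rik (r = 0.988) and Gm42732 (r = 0.988), all TEC loci, short models that await experimental support, on other chromosomes. Each was highest in priSG-B replicate 3. These r values are descriptions over libraries that differ in depth and AY036118 level. The priSG-B libraries were the deepest and were all low in AY036118.

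Mir17hg hosts the miR-17-92 cluster, known for driving cell division and for a role in spermatogonia. It was at 4.36, 4.18 and 4.65 FPKM in priSG-B, the tightest group. In priSG-A it was at 0.862, 2.81 and 2.15 FPKM, all lower than priSG-B. In plpSC it was at 1.44, 3.16 and 0.0349 FPKM, again all lower. The last of these values belongs to a library that stands far from its 2 partners. In pacSC Mir17hg was at 3.93, 4.06 and 0.265 FPKM. The rST libraries gave 3.13, 0.0307 and 0.0610 FPKM, those of elST 3.32, 0.312 and 4.10 FPKM. Each of these 4 types held libraries near 3 FPKM or above and libraries near 0, so that the highest value was 151 times the lowest. Since Mir17hg has 1 transcript model of 3536 bp, its fragments could be inferred from the FPKM. They numbered 5.0 in plpSC replicate 3, 28.0 in pacSC replicate 3, 5.0 and 7.0 in rST replicates 2 and 3 and 43.99 in elST replicate 2, against 91.9 to 1301 in the others. The 5 low values thus rest on few fragments each.

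The groups of Mir17hg did not overlap between priSG-B and priSG-A or between priSG-B and plpSC, yet no difference passed the test. The difference was 0.94 ± 0.74 for priSG-B over priSG-A (limma adjusted p = 1) and -1.30 ± 0.74 for plpSC over priSG-B (limma adjusted p = 0.671). Among the 4 members tested, 3 had libraries that did not overlap in the first of these comparisons and 3 in the second, against 29.1% and 23.4% of all loci, in comparisons that share priSG-B. With the term for AY036118 both differences changed sign, to -0.60 and 0.24. That term was estimated within pacSC and elST only, so the change of sign rests on differences among those libraries. Its cause was not tested. In pacSC replicates 1 and 2 and elST replicate 3, which share the low AY036118 level with priSG-B, Mir17hg was at 3.93 to 4.10 FPKM, just under the priSG-B libraries. Only without the 5 libraries set apart did Mir17hg pass in a comparison of successive types: it fell by 2.26 ± 0.55 from pacSC to rST (limma adjusted p = 0.00533, in a range up to 1 over 17 alternatives), where 58.3% of all loci were then called. That comparison left 2 libraries in each type, with AY036118 low in both pacSC and high in both rST libraries, so that the type and that level cannot be told apart in it.

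**Figure D2:**
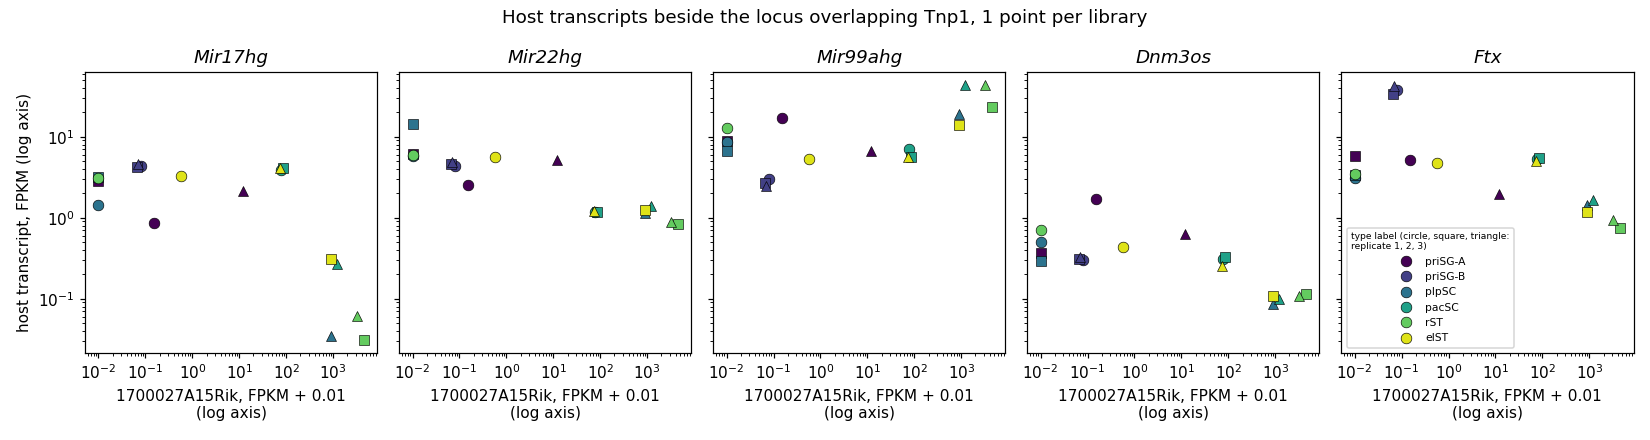
FPKM of each host transcript against FPKM + 0.01 of 1700027A15Rik, the locus overlapping Tnp1 (both log axes), with 1 point per library, colour for the type label and shape for the replicate. The 5 libraries at 874 FPKM or more on the x axis hold the 5 lowest values of Mir17hg, Dnm3os and Ftx, and Mir99ahg there is at 14.1 to 44.03 FPKM.

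The low libraries of Mir17hg were those with the high levels of the Tnp1-overlapping locus. Mir17hg was at 0.0307 to 0.312 FPKM in those 5 libraries and at 0.862 to 4.65 FPKM in the other 13, with no overlap. Ftx was at 0.744 to 1.66 FPKM in the 5 and at 1.98 to 42.7 FPKM in the 13, and Dnm3os at 0.0858 to 0.114 against 0.250 to 1.72 FPKM. These 3 hosts were thus lowest where 1700027A15Rik was highest, whatever the type label. The share of all loci that were split in this way was not counted, so the split cannot be read as particular to these hosts. Mir22hg overlapped, at 0.829 to 1.39 FPKM in the 5 and 1.18 to 14.6 FPKM in the 13. Mir99ahg went the other way, at 14.1 to 44.03 FPKM in the 5 and 2.50 to 16.8 FPKM in the 13. These 5 libraries were picked by a measured level and are no group of the study, so no test was made. The part of that level in the differences between types was not tested.

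Mir22hg hosts miR-22, a microRNA found in many tissues and best known from heart and blood. Its highest value was 14.6 FPKM in plpSC replicate 2, beside 5.72 and 1.13 FPKM in the other plpSC libraries. In priSG-A it was at 2.57, 6.15 and 5.23 FPKM. In priSG-B it was at 4.30, 4.55 and 4.88 FPKM. The 3 plpSC libraries thus spanned the whole range of the spermatogonial ones, and priSG-B lay inside priSG-A. In pacSC Mir22hg was at 1.19, 1.18 and 1.39 FPKM. The rST libraries gave 5.94, 0.829 and 0.885 FPKM, those of elST 5.68, 1.26 and 1.22 FPKM. The pacSC libraries were close to each other, while rST and elST each had replicate 1 near the spermatogonial level and the other 2 near pacSC.

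No difference of Mir22hg between successive types passed in all 18 libraries. The largest in size was -1.43 ± 0.73 for pacSC over plpSC (limma adjusted p = 0.305). No locus at all passed in that comparison (0.0%), and 650 loci had an unadjusted p under 0.05, Mir22hg not among them; limma without trend and robust estimation called none either. Without plpSC replicate 3 alone Mir22hg passed, at -2.18 (limma adjusted p = 0.044), as did 1173 of the 4117 loci, and without the 5 libraries set apart it fell by 2.22 ± 0.39 (limma adjusted p = 0.000538). There 71.2% of loci were called, and both pacSC libraries left had low AY036118 and both plpSC libraries high AY036118, which cannot be told apart from the type. Over 18 alternatives the adjusted p ran from 0.000538 to 0.884. Mir22hg shares 206 exon bases with the coding gene Tlcd2 on the same strand, so some of its fragments may be counted for either gene. The loci most like it were Gm43566 (Pearson r = 0.974), Gm47218 (r = 0.952) and Gm15342 (r = 0.949), each highest in plpSC replicate 2.

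Mir99ahg hosts miR-99a, let-7c and miR-125b; let-7 is known for holding down the stem cell factor Lin28. It was the highest of the 5 members in 13 of 18 libraries and the only one at 1 FPKM or more in all 18. In priSG-B it was at 3.01, 2.67 and 2.50 FPKM, the 3 lowest values of all. In priSG-A it was at 16.8, 8.87 and 6.61 FPKM. In plpSC it was at 8.59, 6.64 and 19.04 FPKM. The priSG-B libraries thus lay under every other library. In pacSC Mir99ahg was at 7.01, 5.57 and 44.03 FPKM. The rST libraries gave 12.8, 23.1 and 43.1 FPKM, those of elST 5.31, 14.1 and 5.61 FPKM. The pacSC value of 44.03 FPKM came from 1 library, far above its partners, and gave pacSC a mean of 18.9 ± 21.8 FPKM (SD, n = 3).

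Mir99ahg was lowest where Ftx was highest, in priSG-B, but its differences did not pass the test. The difference was -1.57 ± 0.73 for priSG-B over priSG-A (limma adjusted p = 0.649, unadjusted p = 0.0491) and 1.61 ± 0.73 for plpSC over priSG-B (limma adjusted p = 0.615, unadjusted p = 0.0437). For elST over rST it was -1.52 ± 0.73 (limma adjusted p = 0.882). In that comparison no locus passed (0.0%), 78 loci had an unadjusted p under 0.05 with no member among them, and a fit without trend and robust estimation gave none either. Without the 5 libraries set apart 3 of its differences passed: -1.83 ± 0.40 for priSG-B over priSG-A (limma adjusted p = 0.0178, 10.9% of loci called), 2.17 ± 0.44 for rST over pacSC (limma adjusted p = 0.00208, 58.3%) and -1.71 ± 0.44 for elST over rST (limma adjusted p = 0.0122, 41.7%). In the first and second of these the 2 types left differed in AY036118 level in every library, which cannot be told apart from the type. In the third, AY036118 was high in both rST libraries and in elST replicate 2 but low in elST replicate 3. Mir99ahg was at 14.1 FPKM in elST replicate 2 and at 5.61 FPKM in elST replicate 3. Over 18 alternatives each, these adjusted p values ran up to 1. With the term for AY036118, estimated within pacSC and elST only, the difference was 0.03 for priSG-B over priSG-A. It was 0.02 for plpSC over priSG-B and -0.19 for rST over pacSC. The loci most like Mir99ahg were Gm38182 (Pearson r = 0.919), Gm45292 (r = 0.903) and Gm50161 (r = 0.9), each highest in pacSC replicate 3.

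**Figure D3:**
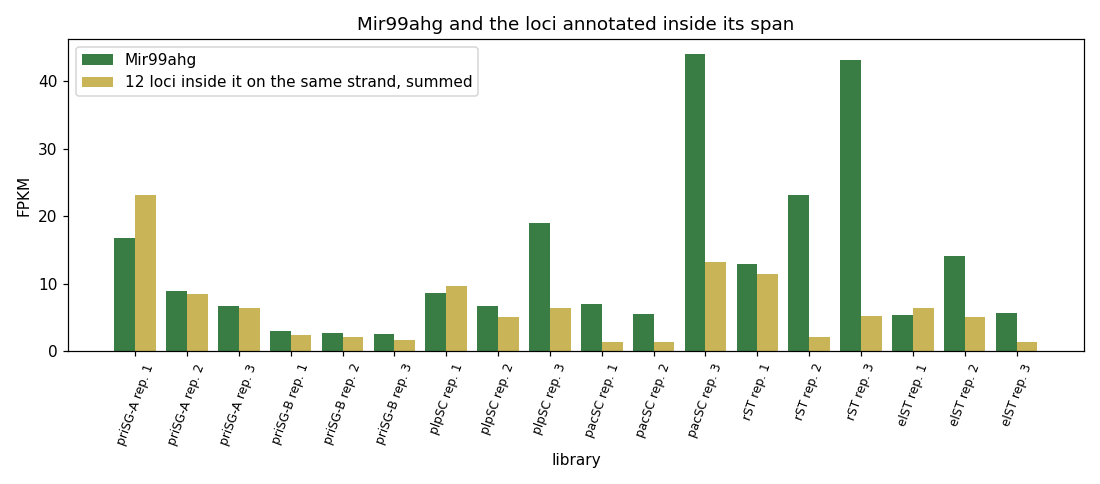
FPKM of Mir99ahg (green) and summed FPKM of the 12 loci annotated inside its span on the same strand (yellow) in each of the 18 libraries. The sum is close to the host or above it in priSG-A and in replicate 1 of plpSC, rST and elST. It is far under the host in pacSC, in plpSC replicate 3 and in replicates 2 and 3 of rST and elST. The priSG-B libraries and plpSC replicate 2 lie between. A sum of FPKM grows with the number of loci, so the paired bars do not compare amounts of RNA.

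The span of Mir99ahg holds 14 TEC loci of the table, 12 of them on its own strand and none sharing exon bases with it. The kit does not mark strand, so fragments from the other strand could be counted for these 12. The summed level of the 12 was compared with that of the host, since they lie between its annotated exons. FPKM is scaled to length, so a sum over 12 loci grows with their number. Its percentage of the host level is therefore no share of the RNA and is read only between libraries. The sum was 23.1 FPKM in priSG-A replicate 1, or 137% of the Mir99ahg level, and 96.0% and 97.2% of it in the other priSG-A libraries. In priSG-B it was 67.3 to 78.2% of the host. In rST replicates 2 and 3, where Mir99ahg was at 23.1 and 43.1 FPKM, the nested loci came to 9.3% and 12.1%. In plpSC replicate 3, pacSC replicate 3 and elST replicate 2, the other libraries with high 1700027A15Rik, they came to 33.7%, 30.1% and 36.2%. The percentage was thus low in these 5 libraries. The sum itself, 13.3 FPKM in pacSC replicate 3, was still far above the other pacSC libraries at 1.30 and 1.36 FPKM. The host was too. Lower percentages than in pacSC replicate 3 were seen in pacSC replicates 1 and 2 and elST replicate 3, at 18.5%, 24.3% and 23.9%. The host was at 5.57 to 7.01 FPKM there. In rST and elST replicate 1 the percentages were 89.0% and 119%. Of the nested loci C130023A14Rik begins within the last bases of the Mir125b-2 hairpin; it was at 0.102 to 2.22 FPKM and highest in priSG-A replicate 1.

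Dnm3os, the host of miR-199a and miR-214, is known from mesenchyme and is needed for growth of the skeleton. It was the lowest member in 14 of 18 libraries and at 1 FPKM or more in 1 library, so it did not pass the filter. Its level was 1.72, 0.372 and 0.635 FPKM in priSG-A. In priSG-B it was 0.301, 0.313 and 0.327 FPKM, all under priSG-A. In plpSC it was 0.506, 0.290 and 0.0858 FPKM, on both sides of priSG-B. In pacSC Dnm3os was at 0.311, 0.332 and 0.0980 FPKM. The rST libraries gave 0.708, 0.114 and 0.108 FPKM, those of elST 0.433, 0.107 and 0.250 FPKM. From priSG-B on, the types overlapped. In a fit of all loci above 0 its largest difference was -0.48 ± 0.24 for priSG-B over priSG-A (limma adjusted p = 0.552). Reads of unspliced Dnm3 could be counted for Dnm3os, since the library kit does not mark strand. The loci most like Dnm3os were Gm37940 (Pearson r = 0.863), 5330431K02Rik (r = 0.852) and Gm38230 (r = 0.847).

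Markers of other testis cells could be checked only in part. Of the mesenchymal list 3 of 9 were in the table, with Hoxd3os1 at 0.264 to 30.8 FPKM, Hand2os1 at up to 1.10 FPKM and Hoxa11os at up to 0.0351 FPKM, near 0. Hoxd3os1 was lowest in the priSG-B libraries, at 0.264 to 0.336 FPKM, where Mir99ahg was lowest too, and at 23.4 to 30.8 FPKM in the 5 libraries with high 1700027A15Rik. It was at 17.3 to 20.6 FPKM in pacSC replicates 1 and 2 and elST replicate 3, where Mir99ahg was at 5.57 to 7.01 FPKM. Hoxd3os1 was thus high in the libraries where 1700027A15Rik was high, and cannot be read here as a marker of mesenchymal cells alone. Wt1os was the 1 of 6 Sertoli markers in the table and was at 0.134 to 2.80 FPKM, highest in rST replicate 1. The imprinted RNAs H19 and Meg3, abundant in fetal and somatic cells, were highest in priSG-A replicate 1, at 234 and 18.9 FPKM, the library in which Dnm3os was also highest. None of the Leydig, macrophage, endothelial or red blood cell markers is in the table. The part of such cells in the levels of the hosts was not tested.

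**Figure D4:**
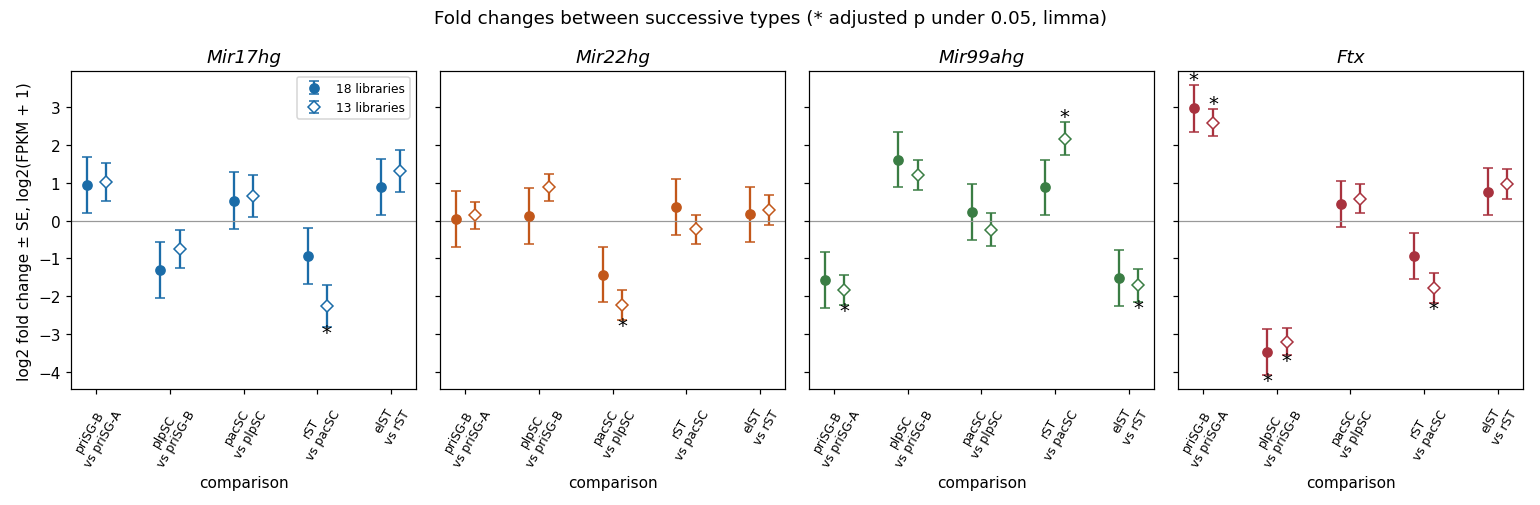
Differences in log2(FPKM + 1) with SE between successive types for the 4 members that passed the filter, from all 18 libraries (filled circles) and without the 5 libraries set apart (open diamonds), with a star at limma adjusted p under 0.05. With all libraries Ftx alone carries stars, at 2.96 and -3.47. Each member carries at least 1 without the 5, which were picked from these same data.

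From plpSC on, no difference of a member passed the test in all 18 libraries. The largest were -1.43 ± 0.73 for Mir22hg in pacSC over plpSC and -1.52 ± 0.73 for Mir99ahg in elST over rST. Both were larger in size than the within-type SD of 0.86. Failing the test does not show that a member was unchanged. Members called numbered 0 in pacSC against plpSC, in rST against pacSC and in elST against rST, by limma with and without trend and robust estimation, and no locus was called (0.0% in each). Groups of members that did not overlap were also 0 in each, against 7.82%, 12.3% and 4.49% of all loci. No member had an unadjusted p under 0.05 in these 3 comparisons, where 650, 372 and 78 loci did. For rST over pacSC the differences were -0.94 ± 0.61 for Ftx, -0.94 ± 0.74 for Mir17hg, 0.88 ± 0.73 for Mir99ahg and 0.36 ± 0.73 for Mir22hg. Without the 5 libraries set apart Ftx passed here too, at -1.78 ± 0.39 (limma adjusted p = 0.00305, in a range up to 1 over 18 alternatives), where 58.3% of loci were called and the libraries left differed in AY036118 level throughout. The median difference of all loci was -0.21, 0.42, 0.58, -0.35 and 0.17 over the 5 comparisons in order of age, beside which the members' values are to be read.

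How the spread within types compared with that of other loci depended on the pseudocount. The within-type SD of log2(FPKM + 1) was 0.64 for Ftx, 0.86 for Mir22hg, 0.86 for Mir99ahg and 0.92 for Mir17hg, where the median of all 4117 loci was 0.68. On this scale 45.5% of loci had a smaller SD than Ftx, 61.4% than Mir22hg, 61.8% than Mir99ahg and 64.8% than Mir17hg. With a pseudocount of 0.1 these shares were 17.9%, 29.4%, 20.1% and 66.5%. Among those loci Mir99ahg stood at the 73.7th to 97.3rd percentile by FPKM, and Ftx at the 36.6th to 98.7th. Mir17hg ranged from the 5.76th to the 90.3rd percentile, the widest of the 4.

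Other noncoding microRNA hosts were read from a list of 24, of which 17 were in the table and 9 passed the filter. None of the 9 was called in any of the 5 comparisons or in the F test by limma with trend and robust estimation, the only fit made for them. At most 1.26% of all loci were called in any of these, so the lack of calls is not particular to microRNA hosts. Their median difference was -0.15 for priSG-B over priSG-A and -0.07 for plpSC over priSG-B, beside -0.21 and 0.42 for all loci tested. Rian, the host of a snoRNA and microRNA cluster at the imprinted Dlk1-Dio3 domain, was at 2.27 to 19.6 FPKM. Mirg, from the same domain, was at 0.209 to 4.36 FPKM, and its differences of -0.16 and -0.11 around priSG-B were well under their SE of 0.54. Mir100hg, which hosts the sister cluster of Mir99ahg, was at 0.532 to 3.78 FPKM and highest in rST replicate 1, and Mir99ahg was highest in pacSC replicate 3. Of the 9, Mir9-3hg, Mir670hg and Mirg were also highest in pacSC replicate 3, and the rest in other libraries. Mir670hg was at 8.18 to 18.1 FPKM in the libraries with high 1700027A15Rik and at 0.392 to 2.64 FPKM in the others. Mir142hg, a host known from blood cells, was listed at 0 to 5.75 FPKM and highest in pacSC replicate 2. Mir155hg, known from activated lymphocytes, stayed at or under 0.375 FPKM.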

How the data were processed

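FPKM, fragments per kilobase scaled to library size, were deposited by the authors for 13218 loci in 18 libraries, without raw reads. The submitters' processing notes name HISAT2, StringTie and mm10 and no versions. The annotation was not given in the sources used here, nor were the strand setting and filters. Libraries were made from Trizol RNA with an Illumina TruSeq kit, which does not mark strand, per the labels' protocols. Depth and fragment length were inferred from the FPKM steps of low values in single-exon loci, where 97.4 to 99.2% came out whole within 0.02. Inferred depth was 31.7 to 92.2 M (mega) fragments a library.

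The 4117 loci that reached 1 FPKM in 3 or more libraries were tested as log2(FPKM + 1) with limma 3.58.1 (R 4.3.3; mean-variance trend, robust estimation) in 1 fit of all 18 libraries. Tests were two-sided, with Benjamini-Hochberg adjustment over all loci and a threshold of 0.05. Tables were handled with pandas 2.3.3. The scripts were tested on simulated data. The members and lists were chosen with earlier results of these data known, and so were the 5 libraries set apart. Calls and p-values without those 5 are thus descriptions only. Named loci are the members, the 3 loci with the highest Pearson r to each, and the members of the lists. Same-numbered libraries were checked for pairing by the correlation of their deviations from the type means. These correlations were 0.307 to 0.348 for pacSC with plpSC and 0.132 to 0.850 for elST with rST, over 0.1 in every pair, and under 0.1 in at least 1 pair of each other comparison. Alternatives changed the pseudocount, the filter, the scaling, the estimation and the libraries used. No 2 libraries held identical values.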

Additional observations from a re-analysis of the deposited data

How the results depend on the processing

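Members called were 1 in priSG-B against priSG-A, 1 in plpSC against priSG-B, 1 in the F test and 0 in the other 3 comparisons. With a pseudocount of 0.1, quantile normalization or the AY036118 term each of the 3 calls of 1 went to 0. Without the 5 libraries set apart the numbers called were 2 in priSG-B against priSG-A (10.9% of all loci called), 1 in plpSC against priSG-B (11.6%), 1 in pacSC against plpSC (71.2%), 3 in rST against pacSC (58.3%), 1 in elST against rST (41.7%) and 4 in the F test (95.3%). Leaving out replicates gave 0 to 0 in priSG-B against priSG-A, 0 to 1 in plpSC against priSG-B, in pacSC against plpSC and in the F test, and 0 to 0 in the rest. The replicate block left members called at 1, 1, 0, 0 and 0 in the order of age and at 1 in the F test, and changed no call of a member. Signs turned with the AY036118 term for Mir17hg (-0.60, 0.24, -0.50 and 0.0915 in the first 4 comparisons), Mir99ahg (0.0291 in the first, -0.19 in the fourth), Mir22hg (-0.35 in the second) and Ftx (-0.24 in the third). With quantile normalization they turned in plpSC against priSG-B for Mir22hg (-0.24), and in pacSC against plpSC for Mir17hg (-0.44), Mir99ahg (-0.98) and Ftx (-0.64). Without the 5 libraries Mir99ahg turned to -0.24 in pacSC against plpSC and Mir22hg to -0.24 in rST against pacSC. Leaving out replicates spanned 0 for Mir22hg in priSG-B against priSG-A (-0.26 to 0.24), plpSC against priSG-B (-0.56 to 0.91), rST against pacSC (-0.30 to 0.70) and elST against rST (-0.36 to 0.80), and in pacSC against plpSC for Mir17hg (-0.0123 to 1.19) and Mir99ahg (-0.65 to 0.74). The cause of these turns was not tested, and the AY036118 term was estimated within pacSC and elST only. Loci called over the alternatives ran from 0 to 448, 477, 2932, 2401 and 1718 in the order of age and to 3923 in the F test, against 28, 52, 0, 0, 0 and 28. Low FPKM limits Dnm3os, and few fragments the lowest values of Mir17hg.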
